A study of Caenorhabditis elegans with 2 samples.

Results

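The peaks described here are the AMA-1 binding sites on the X chromosome of Caenorhabditis elegans. AMA-1 is the largest subunit of RNA polymerase II, the enzyme that transcribes messenger RNA genes and many small non-coding RNA genes. Members were chosen by chromosome and by measured height: from 30000 peaks called on both replicates together, the 5000 with the highest signal value were taken, and the 594 of them on X were selected on that value. The signal value is the height that the authors' peak caller gave each peak, a score with no stated scale, and the summit is the position deposited as the peak's highest point. The other 4406 lay on the 5 autosomes and serve as the comparison for position and for the genes reached. Since height and chromosome were what the selection used, heights and peak numbers below are descriptions without a test.

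The study mapped AMA-1 by chromatin immunoprecipitation and sequencing (ChIP-seq) in 1 group of 2 biological replicates. Both were whole late embryos of the wild-type strain N2, males and females pooled, of unknown age. No mutant, treatment or transgene was compared, and no control sample was analysed here, so no level measured without the antibody is available. The sources used here give neither the share of males nor the read depth. In whole embryos, strong occupancy in few cells and weak occupancy in many cells cannot be told apart, and neither can the polymerase level per X copy and the number of X copies in the pooled sexes.

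Hermaphrodite worms carry a pair of X chromosomes and males a single one. In hermaphrodites a condensin-based dosage compensation complex binds both X chromosomes and lowers their transcription, so that the sexes make similar amounts of X gene products. The X chromosome of this species is poor in genes used in the germline and holds many genes of neurons, muscle and other somatic tissues.

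The highest X peaks lay largely at non-coding RNA genes, and the sequences at these sites are given first. The 4 highest summits stood in the non-coding RNA gene C30E1.9, at 2 sites in introns of ugt-50, which encodes a UDP-glucuronosyltransferase, and in an intron of F09A5.3 beside a cluster of microRNA genes. The 121 bases centred on each of these summits are printed 5′ to 3′ on the plus strand of ce11, from the RefSeq sequence of the same assembly, with each GAGAGA or its reverse complement TCTCTC in capitals. None of the 4 overlaps an annotated untranslated region.
C30E1.9, chrX:16929966-16930086: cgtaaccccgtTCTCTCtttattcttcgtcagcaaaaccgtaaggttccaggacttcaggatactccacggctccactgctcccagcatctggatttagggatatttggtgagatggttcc
ugt-50, chrX:12693163-12693283: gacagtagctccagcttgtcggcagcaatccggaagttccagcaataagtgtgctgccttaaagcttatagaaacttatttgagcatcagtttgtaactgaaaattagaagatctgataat
ugt-50, chrX:12692102-12692222: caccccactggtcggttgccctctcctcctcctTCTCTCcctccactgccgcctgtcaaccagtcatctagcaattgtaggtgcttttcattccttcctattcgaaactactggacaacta
F09A5.3, chrX:13145084-13145204: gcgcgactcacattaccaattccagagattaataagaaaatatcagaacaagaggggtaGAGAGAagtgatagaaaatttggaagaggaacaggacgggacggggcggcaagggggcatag

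The mature products of the microRNA genes at X summits are shown to let their seeds be compared. A microRNA pairs with its target messages mainly through its seed, bases 2 to 8, here in capitals. The 3′-arm products of mir-54, mir-55 and mir-56, members of the mir-51 family that is needed in embryonic development, share 1 seed. Those of mir-73 and mir-74 share another. The other 4 of the 9 genes with a mature sequence share no seed with any of them: mir-82, of the family of mir-58a and bantam, mir-62, which lies in an intron of ugt-50, mir-271 and mir-800, for which both arms are given. All sequences were read from RefSeq's annotation of the WBcel235 assembly.
mir-54: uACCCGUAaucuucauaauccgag
mir-55: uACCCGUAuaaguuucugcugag
mir-56: uACCCGUAauguuuccgcugag
mir-73: uGGCAAGAuguaggcaguucagu
mir-74: uGGCAAGAaauggcagucuaca
mir-82: uGAGAUCAucgugaaagccagu
mir-62: uGAUAUGUaaucuagcuuacag
mir-271: uCGCCGGGuggaaagcauuc
mir-800, 5′ arm: uGACAAUUuccgaguuaggcca
mir-800, 3′ arm: gCCAAACUcggaaauugucugc

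The highest X peak was rank 8 of all peaks (X: 16929928 to 16930141), with a signal value of 288 in the pooled list, 238 in replicate 1 and 51.8 in replicate 2. It was rank 7 in replicate 1 and rank 10 in replicate 2, so both libraries placed it among their leading peaks. C30E1.9 spans 14770 bp (X: 16929914 to 16944683), has no protein product in the annotation, and held 7 summits. A further summit at rank 97 of the pooled list had signal values of 66.1 in replicate 1 and 17.1 in replicate 2. The summits at ranks 34 and 61 belonged to replicate 1: they had 118 and 100.5 there, against 4.64 at rank 27478 and no overlapping peak in replicate 2. One more C30E1.9 summit, at rank 1587, lay over the small nucleolar RNA gene F52G3.6, whose product guides modification of other RNAs.

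At ugt-50 the replicates parted in the same way. The intronic peak at rank 12 (X: 12693096 to 12693340) had a signal value of 231.2 in the pooled list and 234.5 in replicate 1, and no overlapping peak in replicate 2. The peak at rank 20 (X: 12691987 to 12692336), upstream of cel-mir-62 on the same strand, had 127 in replicate 1 and 27.9 in replicate 2, at ranks 22 and 46. A lower summit at rank 1211 lay within 250 bp of cel-mir-62 and overlapped the same replicate peaks.

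The peak at rank 27 (X: 13145042 to 13145222) lay 50 bp from cel-mir-54, with cel-mir-55 within 250 bp as well. Its signal value was 135 in the pooled list, 132 in replicate 1 and 39.5 in replicate 2, at ranks 20 and 17. Next to it, cel-mir-56 had a summit 19 bp away at rank 528. All 3 genes sit on the minus strand in an intron of F09A5.3, where 4 of that gene's 5 summits fell, so the 11 X microRNA genes with a summit stood for only 8 different summits. The others were cel-mir-82 (rank 694), cel-mir-73 and cel-mir-74, which shared the summit at rank 1187, cel-mir-800 (rank 3527), cel-mir-271 (rank 4080), cel-mir-55b, and cel-mir-8196a at rank 145, in the same place as the long non-coding RNA gene linc-154.

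Of the 20 highest X peaks, 12 were outside protein-coding genes, 5 in introns and 3 in exons. All 20 were among the 500 highest peaks of replicate 1, and 12 were among the 500 highest of replicate 2. Protein-coding genes among them included hbl-1, a Hunchback-related regulator of developmental timing (rank 119, X: 5825349 to 5825698, signal values of 73.2 in replicate 1 and 13.7 in replicate 2). The intron of dlg-1, which encodes the Discs large scaffold of epithelial junctions, followed at rank 123 (X: 5480094 to 5480443), with 52.1 in replicate 1 and 22.8 in replicate 2. The linker histone gene his-24 had a peak on either side, 27 bp inside its start at rank 151 and 69 bp beyond its end at rank 149. The peak at its start was rank 27 in replicate 2, with 33.8, and rank 334 in replicate 1, with 45.8. A peak at rank 78 lay 123 bp beyond the end of the actin gene act-4, in coding sequence of the neighbouring M03F4.6, to which rank 150 also belonged. Rank 173 lay 184 bp beyond the end of eef-1A.2, an elongation factor gene of translation. The remaining loci were the non-coding genes W05H9.3 (rank 82), F57G12.12 beside F57G12.1 (rank 107) and a tRNA gene at a summit 104 bp beyond the end of dyc-1 (rank 181), and a site 269 bp from the non-coding gene W01H2.8 (rank 80). At the tRNA gene 82.5% of the 31-base words around the summit occur once in the genome, so part of its reads may belong to other copies.

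**Figure D1:**
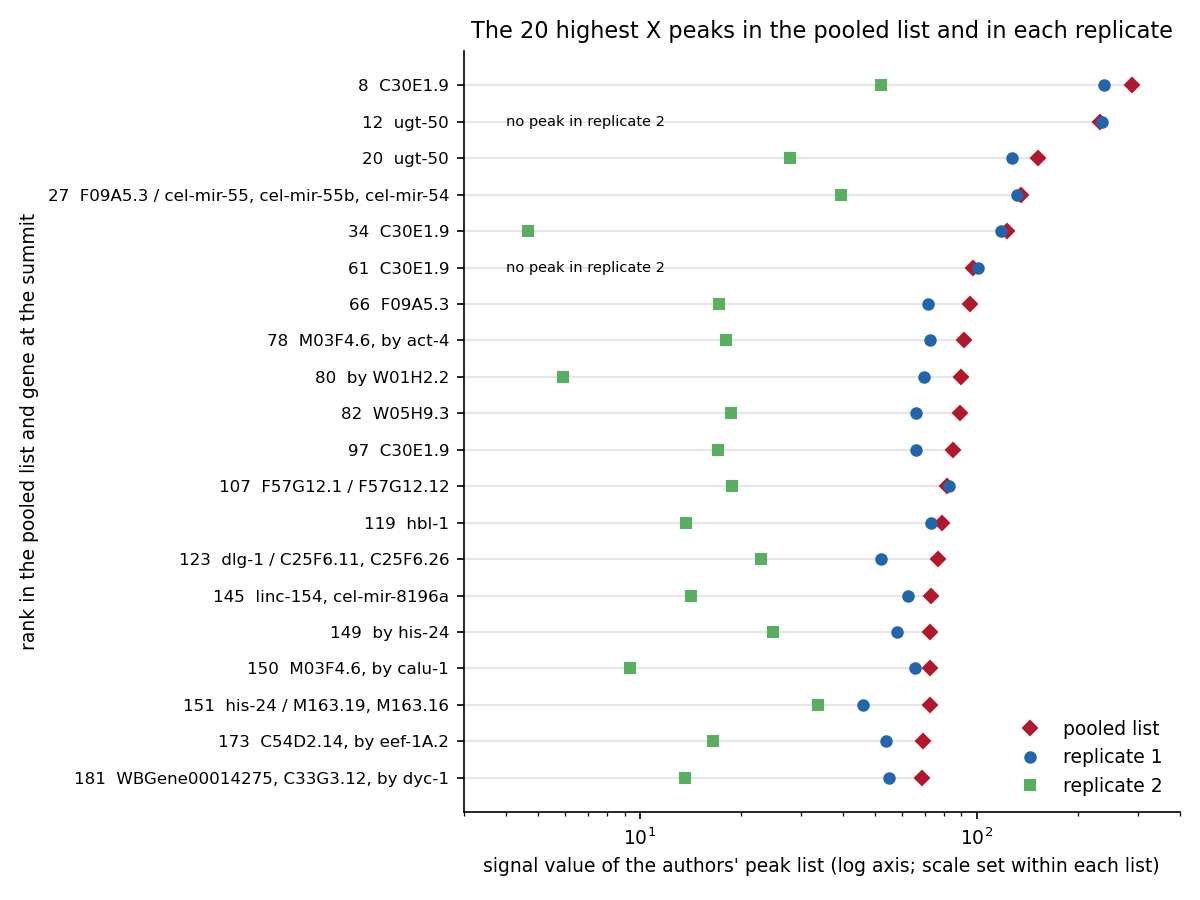
Signal value on a log axis of the 20 highest X peaks in the pooled list (diamonds), replicate 1 (circles) and replicate 2 (squares), one locus per line in order of pooled rank. Replicate 1 has a value at all 20 loci, from 45.8 to 238, whereas replicate 2 has no peak at ranks 12 and 61 and only 4.64 at rank 34.

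In the pooled list X carried a smaller share of the 5000 highest peaks than of the genome's bases or genes. It held 11.88% of the 5000 peaks with 17.7% of the bases and 13.7% of the protein-coding genes. That is 33.5 peaks per Mb on X, against 35.9 on chromosome V, 47.2 on IV and 58.2 to 67.3 on chromosomes I to III. Per 1000 protein-coding genes X had 217.5 peaks, more than chromosome V with 150.4 and fewer than the other autosomes with 251 to 352. The X share was 11.9% of the 5000 highest peaks of replicate 1 and 14.7% of those of replicate 2. It was 14.5% of the pooled peaks ranked 5001 to 30000. The shares in replicate 2 and in these lower ranks were above the X share of genes and below its share of bases. Along the chromosome the density ran between 10 and 58 peaks per Mb. The interval from 5 to 6 Mb held the most, with dlg-1 and hbl-1 in it, and the interval from 2 to 3 Mb held 55, while the first Mb held 10.

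Within the list the heights of X peaks resembled those of the autosomes. The median signal value was 30.3 on X (range 24.5 to 288) and 30.3 on the autosomes (24.5 to 1428), and 9.09% of X peaks against 9.37% of autosomal peaks reached 50. The last X peaks inside the limit were ranks 4991 and 4998, with 24.47 and 24.46, and the first ones outside it were ranks 5032 and 5037, with 24.41 and 24.40. The limit therefore cuts through a continuous range of heights.

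The replicates agreed on a minority of the X peaks. Of the 594, 448 (75.4%, 95% exact interval 71.8 to 78.8%) shared at least 1 base with one of replicate 1's 5000 highest peaks, and 220 (37.04%, 33.1 to 41.1%) with one of replicate 2's. Both held for 145 X peaks (24.4%), against 27.8% of autosomal peaks. No peak at all overlapped 6 X peaks in replicate 1 and 120 in replicate 2. Signal values of the replicates had a Spearman's rho of 0.0681 across the 468 X peaks with a counterpart in each list, and across 3565 autosomal peaks it was 0.0157. These points share their libraries and were selected on joint height, and neighbouring summits can share a replicate peak. Values for single X peaks rest mainly on replicate 1, and this includes some of the leading ones. Of the 20 highest X peaks, 16 were among the 5000 highest of replicate 2 and 2 had no peak there. Read depth is unknown.

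X summits lay away from protein-coding genes more often than autosomal summits. Outside all protein-coding genes were 205 X summits (34.5%) and 1215 autosomal summits (27.6%), a difference of 6.94 percentage points (95% Newcombe interval 2.99 to 11.1; two-sided Fisher's exact test, adjusted p = 0.00199). Over 1000 bp from the nearest protein-coding gene were 67 X summits (11.3%) and 251 autosomal summits (5.70%), an odds ratio of 2.105 (two-sided Fisher's exact test, adjusted p = 1.05e-05). X was above each of the 5 autosomes in both classes, the autosomes ranging from 26.8 to 28.2% and from 4.53 to 6.52%. The same order held in each replicate's own list, where distal summits made up 10.1% on X against 5.22% on the autosomes in replicate 1 and 14.3% against 8.33% in replicate 2. Adjustment was by Benjamini-Hochberg over 7 position classes. Neighbouring summits are not independent, so the test treats as separate some that are not.

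The gene-poor layout of X moved with these shares. Gaps between protein-coding genes had a median of 1792 bp on X and of 680 to 905 bp on the autosomes, and distal sequence made up 26.05% of X and 14.1 to 22.9% of the autosomes. Divided by the share of bases, distal summits stood at 0.433 on X, within the range of the autosomes (0.222 to 0.463), and summits outside genes at 0.776 (autosomes 0.671 to 0.959). In replicate 1's list the distal ratio of X, 0.386, was above all 5 autosomes (0.221 to 0.375), and in replicate 2's list, at 0.548, it was again inside their range (0.364 to 0.632). The part of gene spacing in the differences was not tested.

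Starts and ends of protein-coding genes held smaller shares of X summits. Each gene counted with a single start and end, the outer edges of its annotation, so inner starts of shorter transcripts were not considered. Within 250 bp of an annotated start were 95 X summits (15.99%) and 914 autosomal summits (20.7%), a difference of −4.75 points (95% Newcombe interval −7.74 to −1.38; two-sided Fisher's exact test, adjusted p = 0.0113). Within 250 bp of an annotated end were 99 (16.7%) and 948 (21.5%), a difference of −4.85 points (−7.89 to −1.43; two-sided Fisher's exact test, adjusted p = 0.0113). Introns held 126 X summits (21.2%) and 1144 autosomal summits (25.96%; two-sided Fisher's exact test, adjusted p = 0.0169). For all 3 classes X was below each autosome in the pooled list. Relative to the bases available, X stood inside the autosomal range for starts (2.101 on X, 1.80 to 2.40 on the autosomes), for ends (2.40, 1.87 to 2.70) and for introns (0.692, 0.657 to 0.921). It stood outside that range for exons, above all 5 autosomes (1.779, 1.431 to 1.746), and for small RNA genes, below all 5 (2.81, 4.10 to 7.70). The exon ratio of X was above all 5 autosomes in replicate 1's list too (1.716, 1.426 to 1.677). In replicate 2's list it was inside their range (1.561, 1.391 to 1.796). There the ratio for ends was below all 5 autosomes (0.762, 0.980 to 1.418) and that for starts just above them (1.946, 1.419 to 1.942).

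The call for starts was lost in replicate 2's list (−2.69 points, Fisher's exact test, adjusted p = 0.112), that for introns likewise (−2.43 points, 0.209), and that for ends in replicate 1's list (−3.45 points, 0.0933). Among the X and autosomal peaks supported by the 5000 highest of both replicates, a set chosen after the data were seen, the distal share was 15.2% on X against 6.85% (adjusted p = 0.00562 by Fisher's exact test), and the start share was 21.4% against 22.4%. When genes of every class counted as genes, the distal difference was −0.0527 points and the start difference −0.335 points. The annotation gives X 2520 genes of the broad non-coding RNA class, against 5244 on all autosomes.

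Exons and small RNA genes showed no difference that passed the threshold in the pooled list. Exons of protein-coding genes held 263 X summits (44.3%) and 2047 autosomal summits (46.5%), a difference of −2.18 points with an interval of −6.40 to 2.095. In replicate 2's own list the exon difference passed, at −6.64 points (Fisher's exact test, adjusted p = 0.00149), and in replicate 1's it was −3.32 points (adjusted p = 0.159 by Fisher's exact test). By part, 32.7% of X summits lay in coding sequence (37.7% on the autosomes), 7.91% in 3′ UTRs (6.01%) and 3.54% in 5′ UTRs (2.54%). An snRNA, snoRNA, miRNA or tRNA gene was within 250 bp of 19 X summits (3.199%) and of 162 autosomal summits (3.68%), with an interval of the difference from −1.77 to 1.34 points. Small RNA genes and their flanks make up 1.14% of the bases of X and 0.553 to 0.747% of those of the autosomes.

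**Figure D2:**
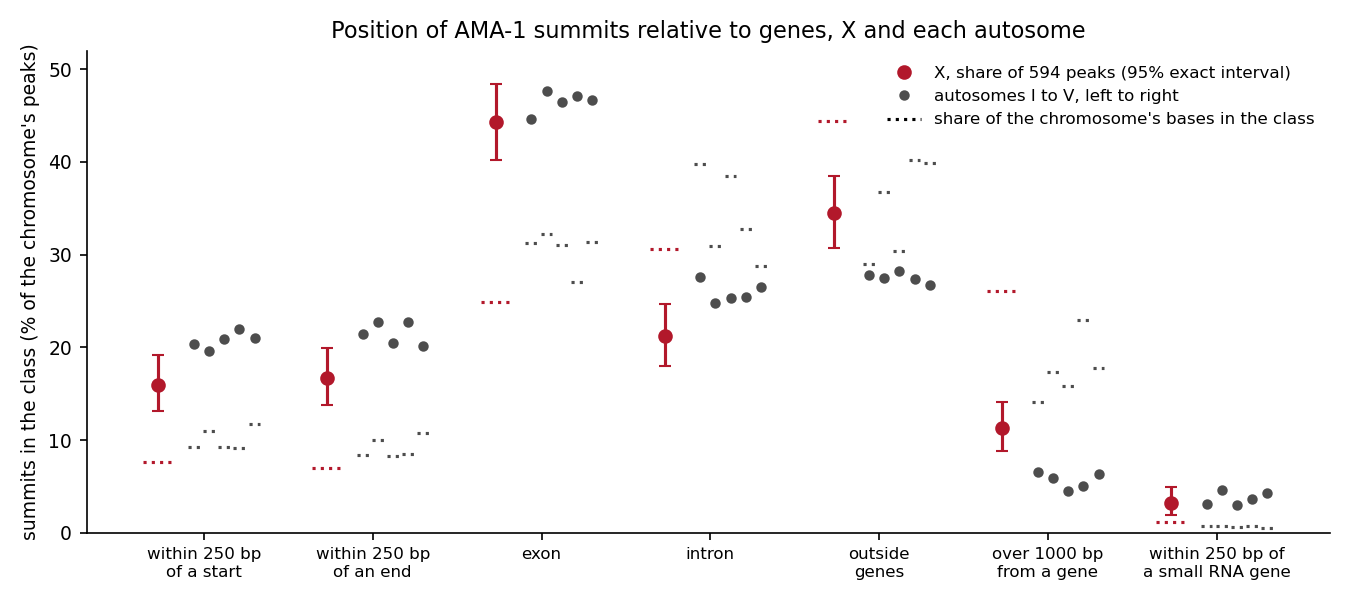
Share of summits in 7 position classes (vertical axis, percent) for X (large points, 95% exact intervals) and for the autosomes I to V (small points), with the share of each chromosome's bases in the class as dotted marks. X is below the 5 autosomes for starts, ends and introns and above them outside genes and over 1000 bp from a gene, where 11.3% of X summits compare with 4.53 to 6.52%.

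In the pooled list, X summits at a gene boundary were split evenly between starts and ends. On X 77 were near a start only, 81 near an end only and 18 near both, and on the autosomes 590, 624 and 324. Those near a start only had a median position 48 bp downstream of it on X and 37.5 bp on the autosomes. Those near an end only had a median of 104 bp beyond the end on X, with 61 of 81 beyond it, and of 119 bp on the autosomes. The end class was the one in which the replicates differed most: 21.1% of X summits in replicate 1's list and 5.30% in replicate 2's, beside 24.6% and 10.6% on the autosomes. The balance on X therefore differed between the replicates, with 82 summits near a start and 126 near an end in replicate 1's list and 109 and 39 in replicate 2's.

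**Figure D3:**
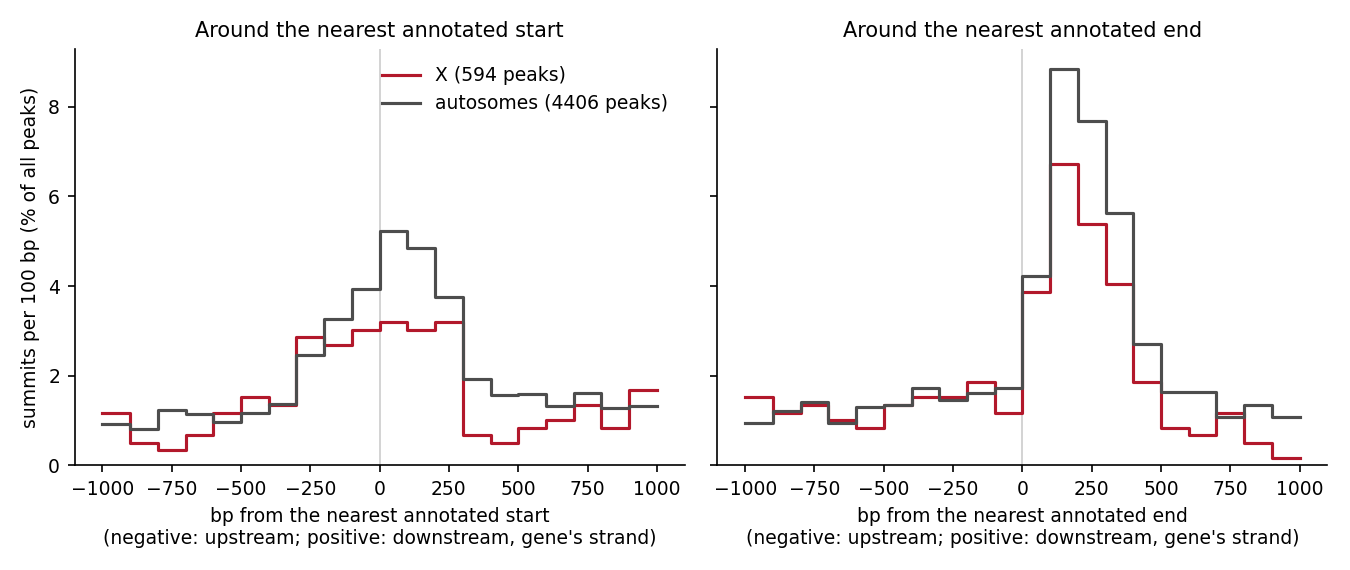
Summits per 100 bp, as percent of all peaks of X (red) and of the autosomes (grey), by distance to the nearest annotated start (left) and end (right), negative values lying upstream on the gene's strand. The X profile lies under the autosomal one in the first 200 bp after starts (3.199% and 3.03% per bin, against 5.22% and 4.86%) and has its highest bin, 6.73%, at 100 to 200 bp beyond ends.

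The 67 distal X summits were spread over 45 gene sides, a gene side being the upstream or downstream flank of the nearest protein-coding gene. Of these, 33 held a single distal summit and 6 held 3 or more. The summits lay up to 11710 bp from the nearest protein-coding gene, with a median of 2455 bp, and 46 of them (68.7%) were upstream of that gene, against 80.1% of the distal autosomal summits. Upstream of hbl-1 stood 5 of them, between 1803 and 4032 bp from the gene, of which all 5 were supported by replicate 1's highest peaks and 1 by those of replicate 2. The 7 summits of C30E1.9 were all distal. A further 3 lay upstream of W05H9.4, between 7811 and 9504 bp from it, and all 3 were among the highest peaks of both replicates. A non-coding gene lay within 250 bp of 37 distal X summits (55.2%) and of 76 distal autosomal summits (30.3%). The share of distal sequence that near a non-coding gene was not computed. X has 2520 genes of the broad non-coding RNA class and all autosomes together 5244. A summit lay within 250 bp of 4.44% of those on X and of 7.36% of those on the autosomes. W05H9.4 was chosen after its values were seen.

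X genes were less often reached than the autosomal genes as a whole, though more often than those of chromosome V. A protein-coding gene was counted when a summit lay inside it or in the 500 bp before its start. This held for 267 of 2731 X genes (9.78%) and for 2443 of 17242 autosomal genes (14.2%), with 8.33% on chromosome V and 13.5 to 19.5% on the other autosomes. The shares were 10.03% on X against 13.7% in replicate 1's list and 14.6% against 16.1% in replicate 2's, and 123 X genes (4.50%) had a summit in the pooled list and both replicates' lists, against 1138 autosomal genes of 17242. X was lower than the autosomes together in each of 5 classes of gene length, from 18 of 485 genes against 295 of 3174 among genes up to 1000 bp to 62 of 248 genes against 471 of 1262 among genes over 8000 bp. Among X genes, those with a summit had a median length of 4431 bp and those without one of 2415 bp. Since peaks were selected on height and chromosome, these shares are given without a test.

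**Figure D4:**
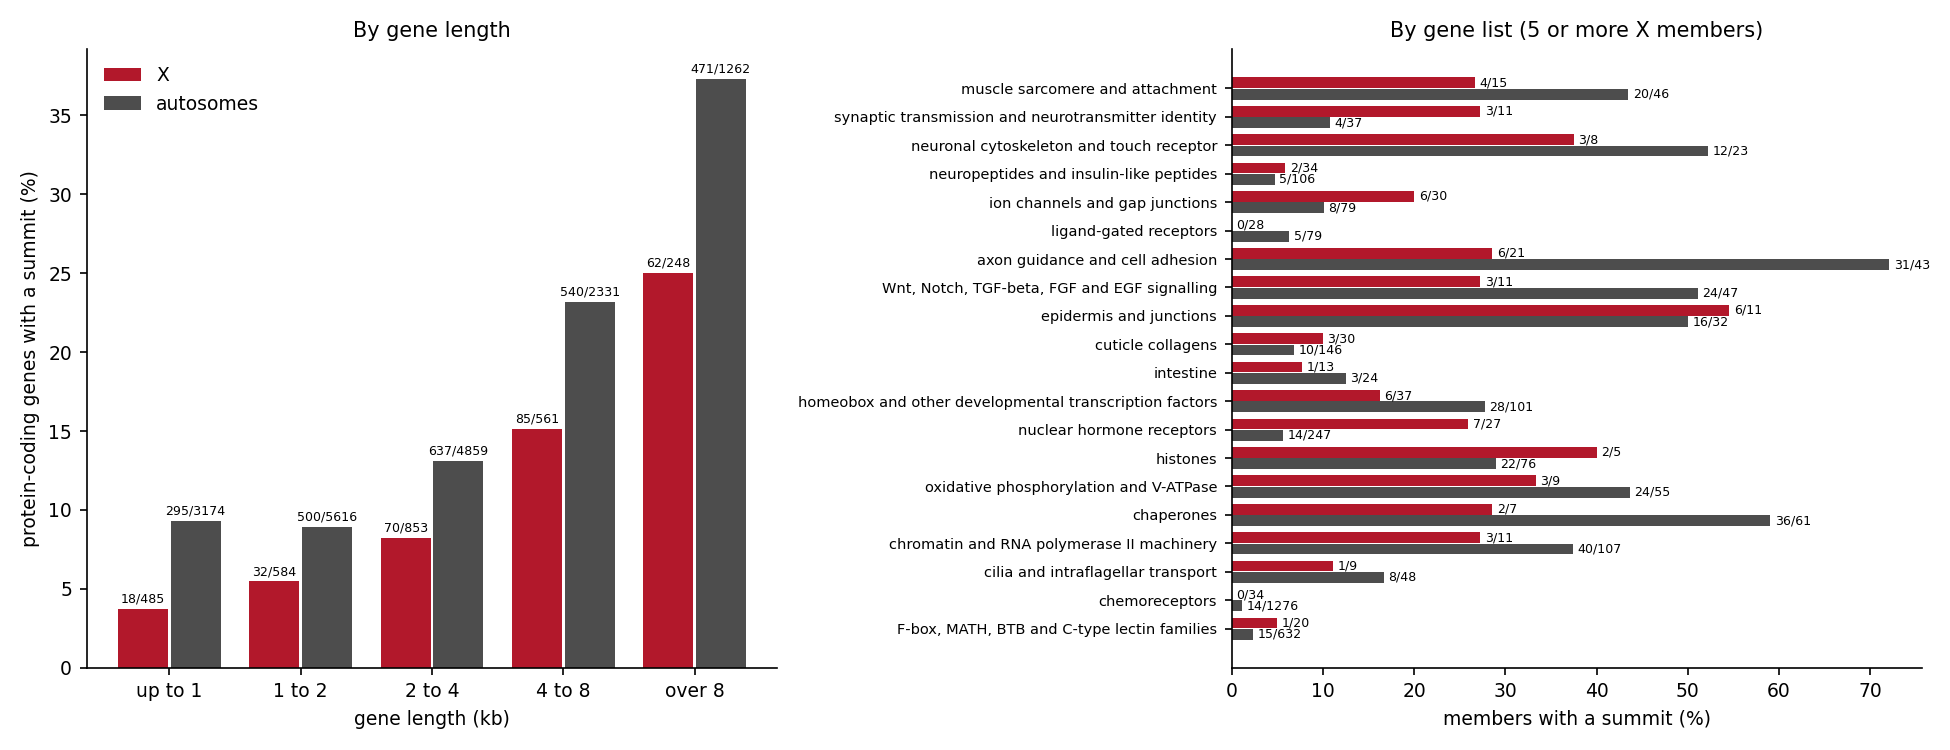
Left, percent of protein-coding genes with a pooled summit by gene length for X (red) and the autosomes (grey), with counts above the bars. Right, the same for the gene lists with 5 or more X members; X bars range from 0 of 34 chemoreceptor genes to 6 of 11 genes of the epidermis and junctions.

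Some X genes held many summits. At least 2 summits were found in 88 of the 267 genes (32.96%). On the autosomes 681 of 2443 genes (27.9%) had at least 2, with up to 16 in 1 gene. With 8 summits each, the leading genes were ajm-1, which encodes a protein of the apical junctions of epithelia, dlg-1, hbl-1 and scd-1. The genes ldb-1, a LIM domain-binding cofactor of transcription, lin-14, a regulator of developmental timing, and spc-1, the alpha chain of spectrin, had 7 each. A summit in each replicate's own 5000 highest peaks was also present in all 7: ajm-1 had 7 in replicate 1 and 7 in replicate 2, ldb-1 had 8 and 7, and dlg-1 had 5 and 3.

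Within these genes the summits did not sit at the annotated start alone. Each gene was given a single start, the outer edge of its annotation, so starts of shorter transcripts inside it were not considered. Whether such an inner start lies near a summit was not tested. In ajm-1, 30674 bp long, all 8 lay between 16260 and 26168 bp from the annotated start, the highest with signal values of 22.5 in replicate 1 and 13.1 in replicate 2. In scd-1, of 21903 bp, they lay between 9350 and 21708 bp. In lin-14 the first stood 137 bp upstream of the start and the other 6 between 7528 and 17331 bp. By contrast, dlg-1, of 5242 bp, had its highest summit 569 bp from the start and hbl-1, of 5614 bp, 3382 bp from it. Genes with 6 summits were bet-2, a bromodomain gene with its highest summit 145 bp upstream of the start, sax-3, the Robo receptor of axon guidance, and syd-9.

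**Figure D5:**
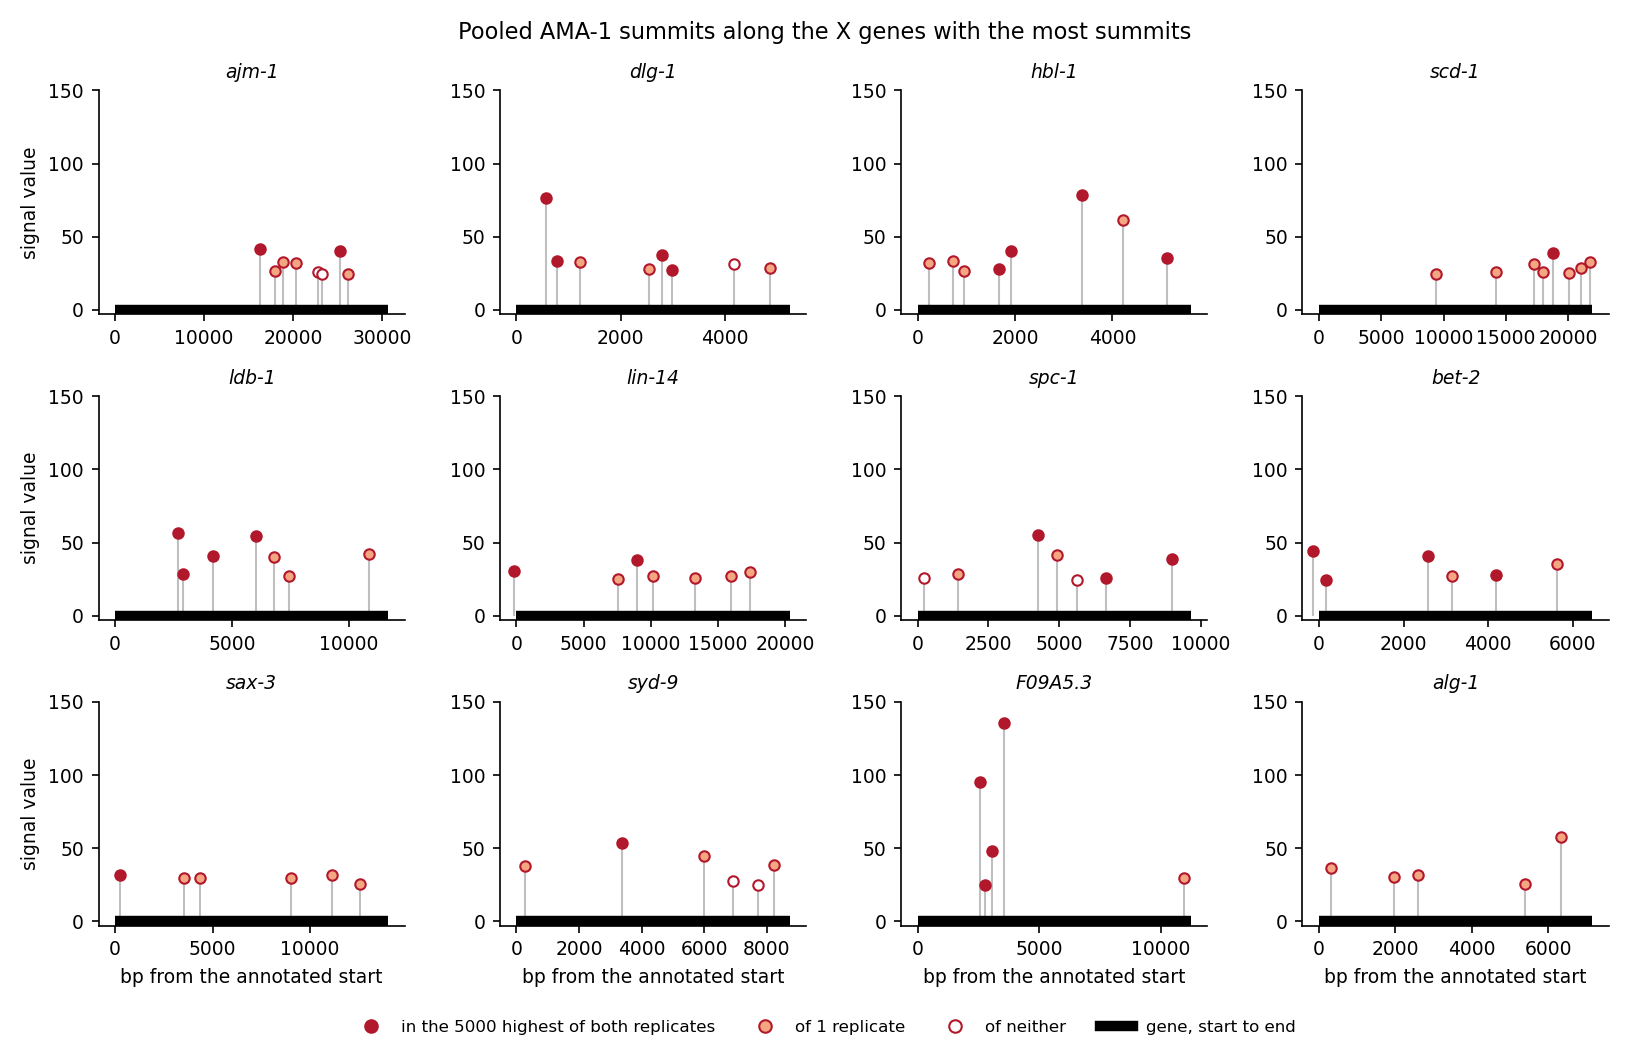
Pooled signal value (vertical axis) of each summit by distance in bp from the annotated start for 12 X genes with the most summits, the black bar marking the gene. Filled points were among the 5000 highest peaks of both replicates, pale points of 1 and open points of neither; in ajm-1 and scd-1 the summits lie in the downstream part of the gene, in dlg-1 and hbl-1 along its whole length.

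Genes that count or regulate the X chromosome were partly reached. Of 4 X genes of the X signal and sex determination list, 2 had a summit, against 2 of 14 autosomal members. In replicate 1's own list 2 of these X genes had a summit, and in replicate 2's own list 0. At fox-1, an RNA-binding X signal element, the higher of 2 summits lay in the 3′ UTR with 36.1 in replicate 1 and 8.14 in replicate 2. At sex-1, a nuclear receptor with the same role, the summit lay in an intron, with 26.5 and 6.88 in the 2 replicates. The dosage compensation genes sdc-1 and sdc-2, both on X, had none in the pooled list, which allows no statement on lower occupancy, whereas 4 of the 8 autosomal members of the complex had one. In replicate 2's own list 1 of the 2 had a summit.

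Genes of the epidermis and nuclear receptor genes gave some of the larger counts among the X lists, to be read beside the 9.78% of all X genes. Among all X genes of 4000 to 8000 bp, 15.2% had a summit. The median lengths of the X epidermis members, 5242 bp, and of the X nuclear receptor members, 4321 bp, fell in that class. By share the nuclear receptors, at 25.9%, were below some other X lists, such as axon guidance and adhesion with 28.6%. Of 11 X genes of the epidermis and junctions 6 had a summit, against 16 of 32 autosomal members. Besides dlg-1 and ajm-1 these included the lipocalin gene lpr-3, with 32.3 in replicate 1 and no overlapping peak in replicate 2, and crb-1, the Crumbs polarity gene, with 17.1 and 8.39. Nuclear hormone receptor genes, transcription factors that respond to small lipophilic molecules, had a summit at 7 of 27 X members and 14 of 247 autosomal ones. The median length of the X members was 4321 bp against 2253 bp. The highest were nhr-17 (15.1 in replicate 1, 19.2 in replicate 2), where 78.8% of words are unique and a tRNA gene lies within 250 bp, then sex-1, nhr-1 with 4 summits and nhr-14. Cuticle collagens had 3 of 30 on X, namely dpy-3, col-164 and col-9, and 10 of 146 on the autosomes.

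Other developmental transcription factors had a summit at 6 of 37 X members (16.2%), against 27.7% of autosomal members. These were hbl-1, lin-14, ceh-63, egl-13 and a pair of genes outside the naming rule, sox-2 and ceh-14, chosen after their values were seen. At the homeobox gene ceh-63 the summit lay 323 bp inside the start, with 26.8 in replicate 1 and no overlapping peak in replicate 2. At egl-13, a SOX-family gene, it lay in the 3′ UTR, 54 bp before the end. Signalling genes had 3 of 11 on X (51.1% on the autosomes), and 1 of 11 in replicate 2's own list. In the pooled list they were sma-9, a Schnurri-type cofactor of TGF-beta signalling with 4 summits, and the operon neighbours lin-15A and lin-15B. These neighbours shared 1 summit, with 28.3 in replicate 1 and no overlapping peak in replicate 2.

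Muscle and neuronal genes are well represented on X and gave mixed counts. Their members on X were 24.6% of the muscle list, 22.9% of the synaptic list and 27.5% of the ion channel list. Muscle genes had a summit at 4 of 15 on X, against 20 of 46 on the autosomes. At act-4 the highest of 4 summits lay 92 bp inside the start, with 49.7 in replicate 1 and 5.85 in replicate 2, and at the myosin light chain gene mlc-1 it lay in the 3′ UTR, with 42.6 and 5.27. The transcription factor gene pat-9 and tni-1, a troponin I gene, had 1 each. Actin genes exist in near-identical copies, and around 1 act-4 summit 64.1% of words were unique, so the copy those reads came from is uncertain.

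Ion channel and gap junction genes had 6 of 30 on X and 8 of 79 on the autosomes. The leading one, at the potassium channel gene kqt-1, lay in coding sequence with 41.2 in replicate 1 and 13.3 in replicate 2, and was shared with the overlapping gene clec-266, a C-type lectin gene with 5 summits. The innexin genes inx-1 and inx-3 had 2 summits each and sup-10 had 1. Synaptic genes had 3 of 11, namely syd-2 (liprin-alpha of the presynaptic zone), cab-1 and aex-3, against 4 of 37. In the touch receptor and neuronal cytoskeleton list 3 of 8 X members had a summit, against 12 of 23 on the autosomes. Those on X were spc-1, mec-7, a touch neuron beta-tubulin, and mec-4, the touch channel subunit. At mec-7 the summit stood 3 bp upstream of the start, with 27.7 in replicate 1 and 8.83 in replicate 2. Axon guidance and adhesion genes had 6 of 21 on X against 31 of 43 on the autosomes, led by dgn-1 (dystroglycan), the syndecan gene sdn-1 and let-2, a collagen IV chain, the last 2 with 4 summits each.

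Ligand-gated receptor and chemoreceptor genes had no X member with a summit in the pooled list. Their X members had median lengths of 3639.5 bp and 1775 bp. Over all X genes the share with a summit was 8.21% for lengths of 2000 to 4000 bp and 5.48% for 1000 to 2000 bp. Ligand-gated receptor genes such as acr-10 and acr-12 had a summit at 0 of 28 X members and 5 of 79 autosomal ones, and chemoreceptor genes such as odr-10 and sra-37 at 0 of 34 and 14 of 1276. In each replicate's own list 1 X ligand-gated receptor gene had a summit. Neuropeptide genes had 2 of 34 (flp-12 and flp-19) against 5 of 106. Their X members had a median length of 834.5 bp, and 3.71% of all X genes up to 1000 bp had a summit. The intestinal list had 1 of 13 on X, against 3 of 24 on the autosomes. The X gene was asp-4, a cathepsin D-type protease gene with its summit 32 bp upstream of the start. Germline genes are rare on X: 2 of 99, meg-1 and meg-2, and neither had a summit. The same held for cdk-4, the only X member among 65 cell cycle genes. On the autosomes 9 of 97 germline genes and 19 of 64 cell cycle genes had one.

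Lists of basic cell functions had up to 11 members on X. None of the 35 proteasome genes lies there, and of 3 X genes of the translation list only eef-1A.2 had a summit, against 27 of 72 on the autosomes. Both X ribosomal protein genes, rpl-11.2 and rpl-25.1, had a summit, as did 40 of 79 on the autosomes, but neither gene had one in both replicates' lists. All 3 X members of the spliceosome list, the RNA-binding protein genes sup-12, hrpa-2 and mbl-1, had one, against 26 of 54. Of 7 X chaperone genes 2 had one, against 36 of 61 on the autosomes. Those on X were hsp-3, the endoplasmic reticulum HSP70, and pdi-2, a protein disulfide isomerase. The highest of 4 hsp-3 summits had 29.2 in replicate 1 and 10.2 in replicate 2. Energy metabolism had 3 of 9 on X, against 24 of 55 on the autosomes. The X genes were led by the V-ATPase gene vha-12 (43.4 and 13.4), then ucr-2.2 and asb-2. Linker histone genes his-24 and hil-3 were the 2 of 5 X histone genes with a summit, against 22 of 76 on the autosomes. The gene hil-3 had 47.3 in replicate 1 and 19.5 in replicate 2. Chromatin genes had 3 of 11 on X, against 40 of 107 on the autosomes. The X genes were the deacetylase gene hda-4 and the histone demethylase genes jmjd-3.1 and utx-1. The cilia list had 1 of 9 on X, ift-81, against 8 of 48 on the autosomes. In all, 68 of the 267 X genes with a summit belonged to one of the 28 lists, which hold 384 X genes.

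Non-coding genes had smaller shares with a summit on X in the 5 classes given here, without a test. A summit lay within 250 bp of 11 of 74 X miRNA genes (14.9%, against 22.5% on the autosomes), 3 of 33 snoRNA genes (9.09% against 21.7%), 9 of 276 tRNA genes (3.26% against 6.55%) and 2 of 38 lincRNA genes (5.26% against 10.9%). None of the 3 X snRNA genes had one, whereas 22.2% of the 126 on the autosomes did. The snoRNA genes were F52G3.6, K02B9.10 (rank 1357) and Y102A11A.16 (rank 1788). tRNA genes are transcribed by RNA polymerase III and exist in many copies: 7 of the 10 X summits with under 90% unique words lay within 250 bp of one.

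Summits were richer in G and C than their chromosome on X and on every autosome. The median over 201 bp was 42.3% on X, whose sequence as a whole has 35.2%, and 40.3 to 41.3% on the autosomes, which have 34.6 to 36.2%. In the same windows GAGAGA on either strand was found at 20.7% of X summits and 19.3% of autosomal summits, against 9.498% and 10.1% of all windows of this length. TATAAA on either strand was found at 11.1% and 12.6%, against 22.8% and 20.9% of all windows. The 8 letters GCGCAGGG, the core of a motif known from binding sites of the dosage compensation complex, were found at 1 X summit (0.168%) and 2 autosomal summits (0.0454%), against 0.0851% and 0.0553% of all windows. These are letter matches and say nothing of bound factors.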

How the data were processed

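AMA-1 peaks of 2 replicate ChIP-seq samples of late embryos, forming 1 group, were analysed from the authors' deposited peak lists. Per the text deposited with the lists, each replicate's relaxed peaks came from its own alignments plus 1 further file, the pooled peaks from the alignments of both, and a final list from these 3 by the irreproducible discovery rate (IDR). Not given in the sources used here were aligner, peak caller, IDR threshold and read filters, and read depth is unknown. Intervals therefore cover counting error only. Height is the deposited signal value, a score set within each list. The deposited −log10 q-value was tied at the top of the lists and was not used.

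Peaks of the pooled ce11 list were ranked by signal value. Genes were those of Ensembl release 115 on the same assembly, and sequences came from RefSeq. A replicate value is that of the highest overlapping peak, which neighbouring summits can share. X and autosomal summits were compared over 7 position classes by two-sided Fisher's exact tests (scipy 1.17.1, Benjamini-Hochberg adjustment, threshold 0.05; intervals by statsmodels 0.14.6). The classification and test were tested on simulated summits drawn independently on a made-up annotation. Many summits here have a close neighbour, so that simulation does not cover their dependence. The test compares positions within these libraries, not conditions. Word uniqueness used 31-base words within the peak. The members, gene lists and tests were chosen with earlier results of these data known, and 12 list names matched no gene. The genes named are those at the 20 highest X peaks, in each list up to 4 X members by highest summit or the first 2 by symbol where none had one, the X genes with the most summits, and X miRNA, snRNA and snoRNA genes within 250 bp of a summit.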

Additional observations from a re-analysis of the deposited data

How the results depend on the processing

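Of 76 recomputed differences between X and the autosomes, 54 kept their direction and their side of the threshold. Of these, 10 were for small RNA genes and 7 for exons, classes that had not passed it. The distal call was kept in 10 settings, lost in 1 and reversed in 1. The start call was kept in 8 and lost in 4, the outside call in 7 and 3, and the end call in 7 and 5. The intron call was kept in 5, lost in 4 and reversed in 1. The larger outside and distal shares of X passed the threshold in both replicates' lists, with the 2500 and 10000 highest peaks, and against chromosome IV alone. The start difference was between −7.02 and −2.69 points in the replicates' own lists, the end difference between −5.35 and −3.45, the exon difference between −6.64 and −3.32 and the intron difference between −4.59 and −2.43. With the IDR list, which has 55 peaks on X, no class passed the threshold, though the differences were of similar size or larger (start −6.52, end −9.07, exon −11.8, intron −4.30, outside 16.1, distal 7.42 and small RNA −10.7 points). The end call was lost with the 2500 highest peaks (−4.52) and a window of 100 bp (−0.964), and the intron call with the 10000 highest peaks (−1.09) and chromosome IV alone (−4.24). The exon difference passed in replicate 2's list (−6.64) and with the 10000 highest peaks (−5.33). With genes of every class, start (−0.335), end (−1.23) and outside (4.59) were lost and exon (0.446) and distal (−0.0527) changed sign. This setting counts the many non-coding genes of X as genes. With peaks found among the 5000 highest of both replicates, added after the data were seen, start (−1.05) and outside (6.33) were lost and intron changed sign (0.432). The cause of any of these changes was not tested.

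The X share of peaks, 11.88%, was 10.3% of the 1000 highest, 13.1% of the 10000 highest and 14.03% of all, and between 11.9% and 14.7% in the replicates' lists (14.7% also in replicate 2's ce10 list). Requiring summits within 100 bp lowered the shares of X peaks found in replicate 1, replicate 2 and both to 68.5%, 28.6% and 13.5%. Without the upstream window 8.17% of X genes and 11.6% of autosomal genes had a summit, and by nearest start 12.05% and 15.2%. No paired analysis was possible because both samples belong to 1 group. Depth is unknown, so summits below the limit, and genes without one, may still be occupied.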

Other observations

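The share of summits outside protein-coding genes was larger among the 500 highest peaks than at lower ranks, on X and on the autosomes. Among the 500 highest peaks of the pooled list, 57.9% of the X summits and 41.3% of the autosomal summits lay outside protein-coding genes, and among ranks 4001 to 5000 the shares were 29.5% and 24.1%. The distal share of X was 15.8% in the first of these slices, against 7.22% on the autosomes, and 9.09% in the second, against 6.22%. In the peaks ranked 20001 to 30000, which the selection did not use, 12.8% of X summits and 9.70% of autosomal summits were distal, and 8.70% and 11.1% lay within 250 bp of a start. Values in these slices are descriptions of 1 list of 2 pooled libraries.

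Summits came in runs as often on X as elsewhere: 34.7% of X summits and 33.6% of autosomal summits had another one within 1000 bp. Counted by Mb, distal X summits were most numerous in the interval from 16 to 17 Mb (12 summits, 7 of them in C30E1.9) and in that from 5 to 6 Mb (11 summits, 5 of them upstream of hbl-1), while 4 of the 18 intervals held none.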
